A study of Mus musculus with 6 samples.

Results

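Slow fiber contractile genes encode the forms of the sarcomere, calcium store and Z-disc proteins that predominate in slow (type 1) muscle fibers. The group examined held 10 genes, Myh7, Myl2, Myl3, Tnnt1, Tnni1, Tnnc1, Atp2a2, Casq2, Sln and Myoz2, out of 23997 gene symbols. They were chosen by name after their levels had been seen to move together between the mice, so their values and the counts of them past a threshold are a description and support no test.

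RNA sequencing had been carried out on the gastrocnemius, a large calf muscle of mixed fiber type, from 3 HrasG12V and 3 WT untreated littermates, all 21 days old, with 1 library per mouse. The HrasG12V mice 2276, 2278 and 2279 were Caggs-Cre+/HrasG12V/+, a model of Costello syndrome in which Cre under the ubiquitous CAG promoter had exchanged 1 Hras allele for the activated G12V allele, which is then transcribed from the Hras promoter throughout the body. The WT mice 2277, 2280 and 2281 were Caggs-Cre-/HrasflG12V/+ and thus carried the same floxed allele without recombination and without Cre. The parental strains shared a mixed SWR/J, 129S1/SvImJ and C57BL/6J background, and sex, litter, processing batch and the portion of the muscle taken are not in the labels.

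Slow and fast fibers use different genes for nearly every sarcomeric protein. The motor is a myosin heavy chain with its regulatory and essential light chains, and the thin filament is switched by the troponin complex, in which troponin C binds calcium, troponin I inhibits and troponin T anchors the complex to tropomyosin. SERCA pumps return calcium to the sarcoplasmic reticulum, where calsequestrin holds it. In the mouse, slow fibers are abundant in the soleus, and in the gastrocnemius they lie mostly in the deep part next to it. In RNA from whole muscle, fewer slow fibers and less slow transcript per fiber cannot be told apart.

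Levels are given as FPKM, the number of fragments mapped to a gene divided by the length of its transcript and by the size of the library, which the authors had normalized between libraries. The methods state a nominal sequencing depth, but the read counts behind each FPKM were not recovered, so the spread between mice is the measure of error. The summed FPKM was 413020 to 547122 in 5 libraries and 814013 in mouse 2276, while the median of the 13359 genes with a mean of at least 0.5 FPKM was 6.39 to 6.64 in all 6. The muscle markers Des, Ttn, Neb and Ryr1 were above 150 FPKM in every library, whereas Acta1 was listed at 0 in all 6 and Ckm in 5. Such zeros in very abundant muscle genes can be failed estimates, and values listed at 0 were not read as absence. Hras itself ran from 36.0 to 51.8 FPKM in WT and from 16.0 to 58.8 FPKM in HrasG12V, a sum over both alleles that overlapped between the genotypes. Xist was higher than the Y-linked Ddx3y in 1 mouse of each genotype (2277 and 2276) and lower in the other 4. WT mouse 2281 stood apart from the other 5 mice in the slow genes, and values are therefore given with and without it.

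The thick filament genes showed this most. Myh7, the heavy chain of slow myosin, had an FPKM of 96.5, 95.2 and 0.443 in WT mice 2277, 2280 and 2281 and of 196.7, 99.6 and 245.1 in HrasG12V mice 2276, 2278 and 2279. The genotypes did not overlap, but mice 2277, 2280 and 2278 lay within 5 FPKM of each other while WT mouse 2281 was 215-fold below the next lowest mouse. On the log2(FPKM + 0.1) scale the HrasG12V mean was 3.30 above WT (SE 1.97), and 0.82 (SE 0.45) without mouse 2281.

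Myl2, the regulatory light chain, was at 397.3, 409.7 and 3.42 FPKM in the WT mice and at 1073, 265.8 and 665.3 FPKM in the HrasG12V mice (mice listed as for Myh7, here and from here on). The groups overlapped, because mouse 2278 was below WT mice 2277 and 2280. Myl3, the essential light chain, ranked the mice as Myl2 did, with 199.2, 210.6 and 1.81 FPKM in WT and 540.6, 148.5 and 367.2 FPKM in HrasG12V. The log2 difference was 2.79 (SE 1.85) for Myl2 and 2.84 (SE 1.81) for Myl3, and without mouse 2281 it was 0.51 (SE 0.67) and 0.59 (SE 0.61). Mouse 2281 lay 77.6-fold below the next lowest mouse in Myl2 and 82.0-fold in Myl3.

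The 3 slow troponins gave the same picture. Tnnt1, slow troponin T, was at 126.9, 139.2 and 4.61 FPKM in WT and at 501.3, 156.4 and 224.4 FPKM in HrasG12V. Tnni1, slow troponin I, was at 114.5, 113.6 and 2.61 FPKM in WT and at 321.9, 91.6 and 220.2 FPKM in HrasG12V. Tnnc1, the troponin C shared by slow fibers and heart, was at 143.2, 143.5 and 3.63 FPKM in WT and at 516.7, 160.7 and 322.7 FPKM in HrasG12V. All HrasG12V mice were above all WT mice in Tnnt1 and Tnnc1, and in Tnni1 mouse 2278 was below WT mice 2277 and 2280. The log2 differences of 2.57 (SE 1.32), 2.51 (SE 1.47) and 2.82 (SE 1.43) became 0.97 (SE 0.55), 0.71 (SE 0.58) and 1.06 (SE 0.55) without mouse 2281, which lay 27.5-fold, 35.1-fold and 39.4-fold below the next lowest mouse.

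The calcium store genes were lowered less in mouse 2281. Atp2a2 encodes SERCA2, whose muscle form pumps calcium in slow fibers and heart and whose other form is made in many cell types. It was at 161.7, 120.4 and 29.1 FPKM in WT and at 147.3, 103.7 and 246.4 FPKM in HrasG12V, so that the groups overlapped and mouse 2281 was 3.57-fold below the next lowest mouse. Its log2 difference was 0.91 (SE 0.68), or 0.16 (SE 0.44) without mouse 2281. Casq2, the calsequestrin of slow fibers and heart, was at 83.9, 92.0 and 41.8 FPKM in WT and at 137.6, 60.4 and 44.3 FPKM in HrasG12V. Here mouse 2281 was barely the lowest, 1.06-fold below HrasG12V mouse 2279, and the log2 difference was 0.06 (SE 0.50). It was -0.29 (SE 0.52) without mouse 2281, -0.41 without mouse 2276 and -0.76 (SE 0.19) without both.

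Sln encodes sarcolipin, a small inhibitor of SERCA pumps. It was at 22.9, 12.9 and 7.20 FPKM in WT and at 47.7, 23.8 and 98.6 FPKM in HrasG12V, with no overlap. Mouse 2281 was only 1.79-fold below mouse 2280, and the log2 difference of 1.90 (SE 0.61) was 1.48 (SE 0.65) without mouse 2281 and 1.49 (SE 0.81) without mice 2281 and 2276. Myoz2, calsarcin-1 of the slow fiber Z-disc, was at 214.3, 190.2 and 46.2 FPKM in WT and at 454.8, 99.2 and 208.9 FPKM in HrasG12V. Its groups overlapped, and its log2 difference was 0.77 (SE 0.77), or 0.07 (SE 0.67) without mouse 2281.

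**Figure D1:**
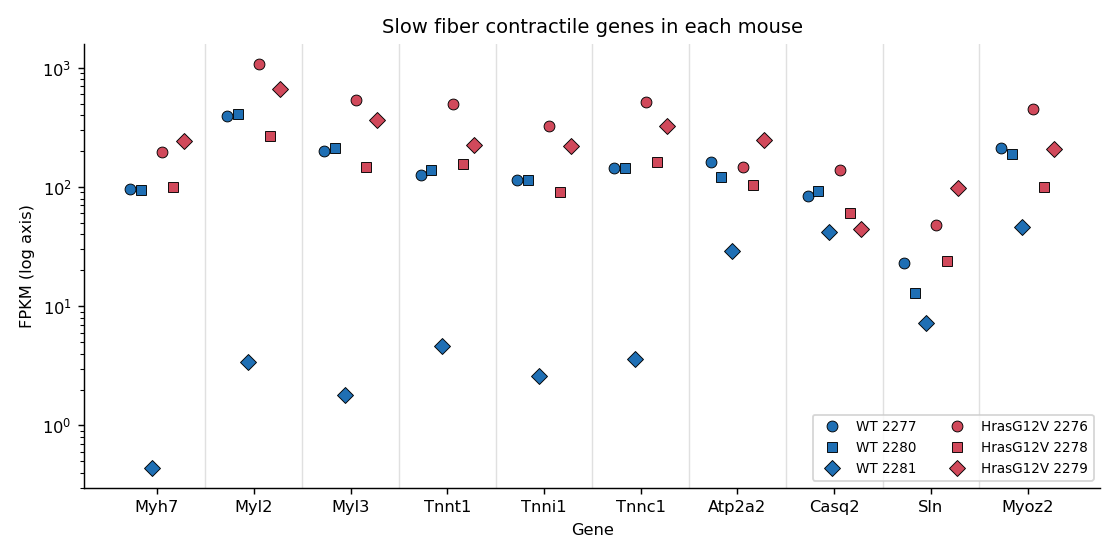
FPKM of each slow fiber contractile gene (log axis), with 1 point per mouse, blue for WT and red for HrasG12V. WT mouse 2281 is the lowest point in every gene, and lies far below the other 5 mice in the 6 thick and thin filament genes from Myh7 to Tnnc1.

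Mouse 2281 was the lowest of the 6 mice in 10 of the 10 genes, while 10% of the 13359 genes had their lowest value in that mouse. It was at least 4-fold below the next lowest mouse in 6 genes, the thick and thin filament genes, against 0.382% of the genes. The distance to the median of the other 5 mice ran from 2.01-fold in Casq2 to 225-fold in Myh7. Summed over the 3 thick filament genes the level was 5.68 FPKM in mouse 2281 and 514.0 to 1810 FPKM in the others, and over the 3 calcium store genes it was 78.1 against 187.9 to 389.3 FPKM. The 11 fast paralogs summed to 78147 FPKM in mouse 2281, to 60978 and 59582 FPKM in WT mice 2277 and 2280, and to 110143, 53269 and 42399 FPKM in HrasG12V, with genes listed at 0 counted as 0.

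The other 5 mice also differed among themselves. WT mice 2277 and 2280 were close, with ratios of 2280 to 2277 between 0.888 and 1.10 in 8 genes and the lowest in Sln (0.565) and Atp2a2 (0.744). The HrasG12V mice were not, and the 5 mice spanned from 2.38-fold in Atp2a2 to 7.63-fold in Sln. Mouse 2276 was the highest of all 6 in 7 genes and mouse 2279 in 3 (Myh7, Atp2a2 and Sln). Mouse 2276 was also the highest in 35.5% of all genes and in 8 of the 9 fast paralogs tested, in a library with the largest summed FPKM. The exception was Tnnt3, listed at 0 in that mouse. Mouse 2279 exceeded mouse 2278 in 9 of 10 genes, by a median of 2.39-fold, the exception being Casq2 (0.734).

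Since Xist and Ddx3y divided the mice by sex, genotypes were also set side by side within each sex. Each comparison is 1 mouse against 1, and shares over all genes were not computed, so nothing is read from the counts. Between the mice with high Xist, 2276 and 2277, the HrasG12V mouse was higher in 9 of 10 genes by a median of 2.41-fold, with Atp2a2 at 0.911. Mouse 2276 was the highest of the 6 mice in 35.5% of all genes. Among the mice with high Ddx3y, HrasG12V mouse 2278 was higher than WT mouse 2280 in 4 genes and lower in 6, with a median ratio of 0.834, and HrasG12V mouse 2279 was higher in 9, with a median ratio of 1.84. WT mouse 2280 had the same sex-linked pattern as mouse 2281, which, as the lowest of the 6 mice in all 10 genes, was necessarily below it.

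For the genotype contrast as a whole, the log2 difference was positive in all 10 genes, with a median of 2.54 against -0.03 over all genes tested. Without mouse 2281 it was positive in 9 with a median of 0.65, and without mice 2281 and 2276 in 8 with a median of 0.26. By limma, 1 of the 10 (Sln) had an unadjusted p below 0.05, where 10.2% of all genes did, and none had an adjusted p below 0.05, where 0.0599% did. Without mouse 2281, 0 of the 10 passed the unadjusted p, where 4.54% of all genes did. Leaving out mouse 2279 or mouse 2280 also gave 0 of the 10, where 1537 and 709 of 13359 genes passed. Without mice 2281 and 2276, 1 of the 10 did (Casq2, lower in HrasG12V), where 22.2% of all genes did, and without mouse 2276 alone 0 of the 10, where 29.8% did. All 3 HrasG12V mice were above all 3 WT mice in 4 of the 10 (Myh7, Tnnt1, Tnnc1 and Sln), where 8.11% of all genes were, and below them in 0, where 10.4% were. As the genes were chosen on this contrast, nothing is read from these counts.

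**Figure D2:**
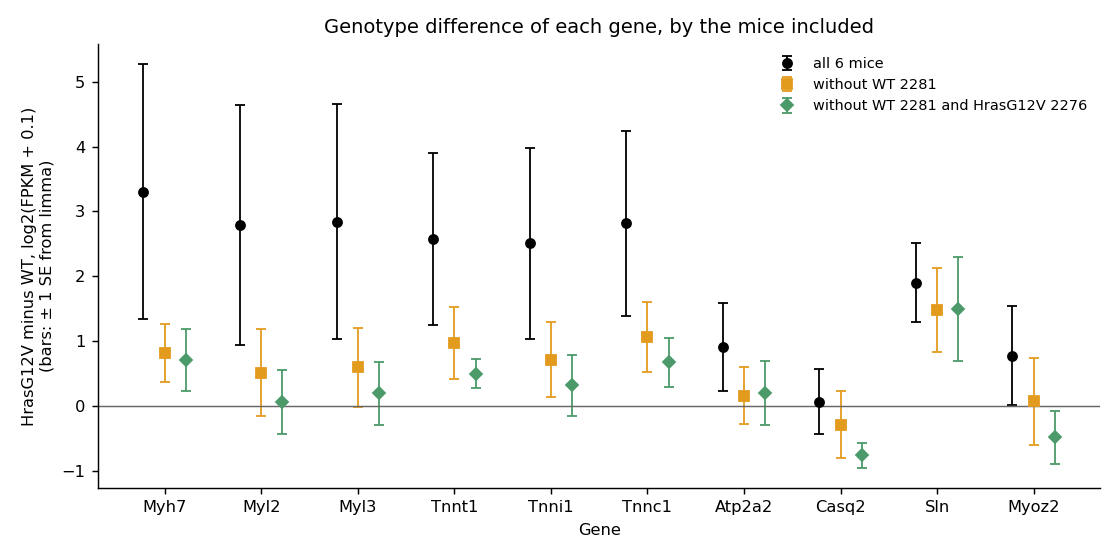
HrasG12V minus WT difference in mean log2(FPKM + 0.1) of each gene, with bars of 1 SE from limma, over all 6 mice (black), without WT mouse 2281 (orange) and without mice 2281 and 2276 (green). The differences of 2.51 to 3.30 in the 6 thick and thin filament genes shrink to 0.51 to 1.06 without mouse 2281, while that of Sln stays between 1.48 and 1.90.

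The genes lie on 6 chromosomes, and their promoters were read for motifs of muscle factors. In GRCm38 (GENCODE vM21), Myh7 is on chromosome 14 at 54970684 to 54994626 (minus strand), Tnnc1 on chromosome 14 at 31208312 to 31211729 (plus), Tnni1 on chromosome 1 at 135779434 to 135810989 (plus), Tnnt1 on chromosome 7 at 4504570 to 4516382 (minus) and Myl3 on chromosome 9 at 110741861 to 110769798 (plus). Myl2 at 122100951 to 122113472 (plus) and Atp2a2 at 122453513 to 122502225 (minus) are both on chromosome 5, Casq2 at 102086415 to 102146514 (plus) and Myoz2 at 123006206 to 123035015 (minus) both on chromosome 3, and Sln is on chromosome 9 at 53850164 to 53854560 (plus). RefSeq promoter windows (GRCm38.p6) were at hand for 8 of the 10 genes. In the 250 bases before the transcription start, both strands were searched for the MEF2 motif, which binds the MEF2 factors of muscle, for CATTCC, the core of the M-CAT element bound by TEAD factors, and for CANNTG, the E-box of myogenic factors. CATTCC was found in Myh7, Myl3 and Tnnc1, the MEF2 motif in Casq2 and Myoz2, and CANNTG in all 8. Myl2, Tnnt1 and Tnni1 held neither CATTCC nor the MEF2 motif. The 8 genes had 11 windows, of which 3 held CATTCC, 2 the MEF2 motif and 11 CANNTG. Of 32851 windows of this length, 12.6% held CATTCC, 2.92% the MEF2 motif and 66.2% CANNTG. The following stretches of 100 bases overlap no exon of GENCODE, and that of Myl3 is intronic within the GENCODE span of its gene. They are written 5′ to 3′ on the strand of the gene, with CATTCC or its reverse complement in capitals for the first 3 and the MEF2 match in capitals for Casq2, the gene lowered least in mouse 2281.
Myh7, chr14:54994775-54994874, minus strand: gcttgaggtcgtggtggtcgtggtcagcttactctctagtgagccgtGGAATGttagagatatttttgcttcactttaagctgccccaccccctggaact
Tnnc1, chr14:31208207-31208306, plus strand: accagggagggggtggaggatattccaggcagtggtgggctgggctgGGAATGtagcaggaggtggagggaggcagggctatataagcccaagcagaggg
Myl3, chr9:110763468-110763567, plus strand: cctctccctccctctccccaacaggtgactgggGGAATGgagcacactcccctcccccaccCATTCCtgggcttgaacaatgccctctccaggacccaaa
Casq2, chr3:102086301-102086400, plus strand: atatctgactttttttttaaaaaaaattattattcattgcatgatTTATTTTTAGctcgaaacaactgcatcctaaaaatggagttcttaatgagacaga

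The match starts at position -201 from the transcription start in Myh7, -58 in Tnnc1 and -69 in Casq2, and Myl3 holds 2 matches. A match is a description of letters, and binding was not measured. Neighbouring genes were read as well. Next to Tnnt1, Ppp1r12c was at 10.4 FPKM in mouse 2281 and 9.48 to 11.4 in the others, and Nisch, which overlaps the Tnnc1 locus, was at 28.5 against 29.1 to 36.3. Ift81, next to Atp2a2, was at 1.69 FPKM in mouse 2281 against 2.14 to 3.37 in the others. Myh6, the adjoining heavy chain gene on the 3′ side of Myh7, followed the slow genes, with 8.95, 9.04 and 0.794 FPKM in WT and 19.9, 9.65 and 23.1 FPKM in HrasG12V. Myh6 stood at 9.28% to 10.1% of Myh7 in the 5 other mice and at 179% in mouse 2281. The 2 genes are close paralogs, and how reads that fit both were counted is not stated, so Myh6 values are uncertain.

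To set the slow genes against fiber mass, each was given as a percent of the sum of its own FPKM and that of its fast paralog in the same library. Slow troponin C was 1.51% and 1.54% of slow plus fast in WT mice 2277 and 2280 and 0.0326% in mouse 2281, against 2.41%, 2.13% and 5.28% in HrasG12V mice 2276, 2278 and 2279. For Tnni1 and Tnni2 the percents were 1.72%, 1.75% and 0.0348% in WT and 1.85%, 1.47% and 3.89% in HrasG12V. For Myl2 and Mylpf they were 2.44%, 2.29% and 0.0153% in WT and 2.89%, 1.74% and 5.82% in HrasG12V. Mouse 2276, the highest in the FPKM of most slow genes, was nearer to WT mice 2277 and 2280 in these shares than mouse 2279, the highest of the 6.

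Myl3 with Myl1 gave 1.27%, 1.56% and 0.00921% in WT and 1.95%, 1.26% and 3.62% in HrasG12V. Tnnt1 with Tnnt3 gave 1.40%, 1.62% and 0.0443% in WT and 1.79% and 3.15% in HrasG12V mice 2278 and 2279, with no value in mouse 2276, where Tnnt3 was listed at 0. Casq2 with Casq1 differed less, at 2.77%, 3.0% and 0.963% in WT and 2.94%, 2.15% and 2.79% in HrasG12V. Myoz2 was a larger part of its pair with Myoz1, at 13.6%, 11.8% and 2.5% in WT and 15.8%, 8.75% and 11.1% in HrasG12V.

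Over these 7 pairs the HrasG12V minus WT difference in the log2 ratio had a median of 2.36 and ran from 0.39 for Casq2 to 2.97 for Myl3, and without mouse 2281 the median was 0.40, from -0.15 to 1.01. It was positive in 7 pairs, or 5 without mouse 2281. The genotypes did not overlap in 2, Tnnc1 with Tnnc2 and, with only 2 HrasG12V mice, Tnnt1 with Tnnt3. No share over all genes was at hand for such ratios, so nothing is read from these counts. The fast genes Mylpf, Myl1, Tnni2, Tnnc2, Casq1 and Myoz1 were at or above 1802 FPKM in mouse 2281, higher there than in WT mice 2277 and 2280. Of the 9 fast paralogs tested, 0 passed an unadjusted p of 0.05 by limma (adjusted p 0.496 to 0.994), where 10.2% of all genes did. Among them Myh1, listed at 0 in mice 2277 and 2280, and Tnnt3, listed at 0 in mouse 2276, entered with those zeros. Their results are not read. Tnnc2 passed without mouse 2276, lower in HrasG12V (log2 difference -0.59), where 29.8% of all genes did. Myh1 passed without mouse 2281, where 4.54% of all genes did. Without both mice Myh1 (higher in HrasG12V, against zeros) and Myh2 (lower) passed, where 22.2% of all genes did. Myh4 and Atp2a1 were listed at 0 in all 6 mice, so that no ratio was formed for Atp2a2 or for Myh7 against all fast heavy chains.

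Myh7 was instead set against Myh2, the heavy chain of type 2A fibers, in a comparison added after the values were seen. It was 16.0%, 18.3% and 0.377% of the pair in WT and 23.6%, 34.0% and 50.3% in HrasG12V, with no overlap and a log2 ratio difference of 3.23, or 1.40 without mouse 2281. Myh2 itself was at 508.3, 425.4 and 117.0 FPKM in WT and at 636.4, 193.1 and 242.5 FPKM in HrasG12V, with mouse 2281 again the lowest. Myh1, the heavy chain of type 2X fibers, was listed at 0 in mice 2277 and 2280 and at 903.3 FPKM in mouse 2281, and at 1185, 531.0 and 297.0 FPKM in HrasG12V, so its difference rests on zeros and has no fold.

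**Figure D3:**
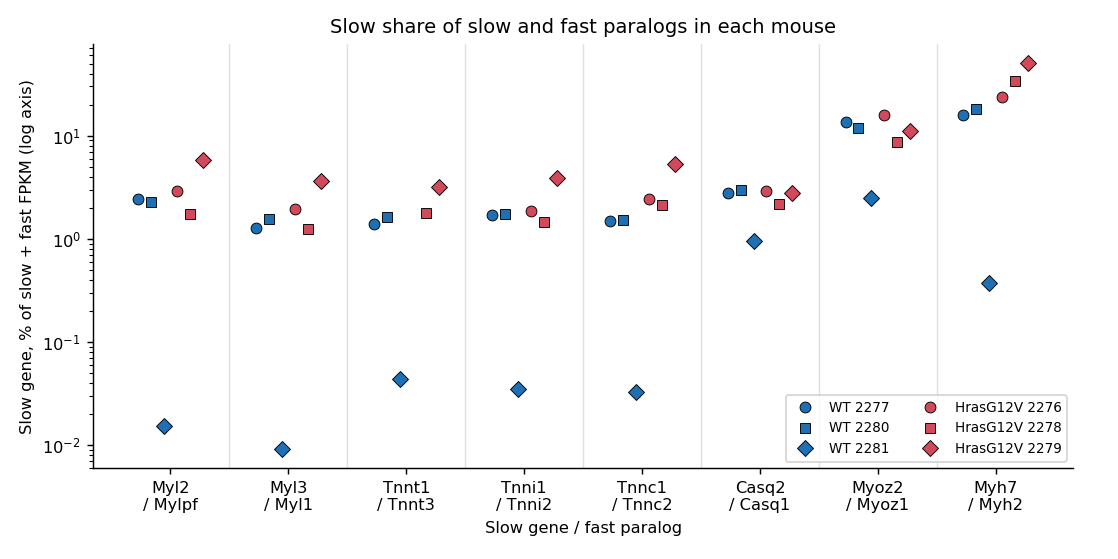
Slow gene as a percent of the summed FPKM of the slow gene and its fast paralog (log axis), with 1 point per mouse, blue for WT and red for HrasG12V. WT mouse 2281 lies below every other mouse with a value in all 8 pairs (mouse 2276 has none for Tnnt1 and Tnnt3), and HrasG12V mouse 2279 is the highest in 6 of them.

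Of 12 further genes linked to slow or oxidative fibers, 2 passed the unadjusted p by limma, both higher in HrasG12V, where 10.2% of all genes did, and none passed the adjusted p. Tpm3, the slow tropomyosin, was at 79.0, 89.8 and 20.3 FPKM in WT and at 188.2, 105.4 and 183.5 FPKM in HrasG12V, with no overlap (log2 difference 1.55, SE 0.60, limma adjusted p = 0.481). Myl6b, the other slow essential light chain, was at 17.1, 27.3 and 5.03 FPKM in WT and at 49.6, 33.5 and 49.1 FPKM in HrasG12V (log2 difference 1.70, SE 0.60, limma adjusted p = 0.460). Without mouse 2281 their log2 differences were 0.87 and 1.0, and only Myl6b of the 12 still passed the unadjusted p, where 4.54% of all genes did. The list's median log2 difference was 0.14, and -0.16 without mouse 2281. Without mouse 2276, other genes passed the unadjusted p and these did not. They were Mybpc1, Smpx, Fabp3 and Mb, all lower in HrasG12V, with log2 differences of -0.85, -0.49, -1.21 and -1.27. In that fit 29.8% of all genes passed the unadjusted p, near the 4 of 12 here.

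The genes of the list followed the slow genes to differing degrees, without a clean split. The slow score of a mouse, the median over the 10 genes of each gene's log2 value centred on its mean over the 6 mice, was 0.46, 0.39 and -4.68 in WT and 1.96, 0.26 and 1.51 in HrasG12V. Pearson's r with this score over the 6 libraries was 0.976 for Tpm3, 0.951 for Myl6b, 0.943 for Csrp3, 0.895 for Myh7b and 0.882 for Ankrd2. For Pdlim1 and Ldhb r was 0.735 and 0.558, and in the rest of the list it ran from -0.296 for Mybpc1 to 0.293 for Mb. These correlations are over 6 libraries, with mouse 2281 far from the other 5 in the score. Csrp3, muscle LIM protein, was at 136.4, 115.2 and 28.5 FPKM in WT and at 282.6, 86.1 and 131.2 FPKM in HrasG12V. Ankrd2, a stretch-responsive protein of slow fibers, was at 93.8, 102.5 and 36.1 FPKM in WT and at 295.1, 74.6 and 141.1 FPKM in HrasG12V.

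The remaining genes of the list were at most 2.75-fold (Pdlim1) below the median of the other 5 mice in mouse 2281. Myh7b, with its higher r, was 2.35-fold below it. Mb, myoglobin, was at 1664, 1771 and 877.3 FPKM in WT and at 3015, 516.3 and 629.7 FPKM in HrasG12V, where mice 2278 and 2279 were below mouse 2281. Fabp3, the fatty acid carrier of oxidative muscle, was at 2167, 1479 and 1166 FPKM in WT and at 2332, 435.2 and 1034 FPKM in HrasG12V, and had the lowest log2 difference of the list (-0.61, SE 0.65). Pln, phospholamban, was near 4 FPKM in all 3 WT mice, mouse 2281 included. Mouse 2281 was the lowest mouse in 6 of the 12 genes, with none at least 4-fold below the next.

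Among 16 regulators of fiber type, 1 passed the unadjusted p by limma, lower in HrasG12V, where 10.2% of all genes did, and none passed the adjusted p. This was Ppargc1a, the coactivator PGC-1alpha of oxidative metabolism, at 9.19, 8.96 and 10.1 FPKM in WT and at 5.48, 5.22 and 6.05 FPKM in HrasG12V (log2 difference -0.74, SE 0.14, limma adjusted p = 0.288). Mouse 2281 was close to the other WT mice in it. Without mouse 2281, 2 of the 16 passed, Ppargc1a and Esrrg, an oxidative nuclear receptor (log2 difference -1.09), both lower in HrasG12V, where 4.54% of all genes passed. Without mouse 2276, 4 of the 16 passed, with Prox1 higher (log2 difference 0.86) and Vgll2 (-1.27), Ppargc1b (-0.85) and Ppargc1a (-0.73) lower, where 29.8% of all genes passed. Without both mice 7 of the 16 passed, 6 of them lower, where 22.2% of all genes passed. The regulators' median log2 difference was -0.41, and the highest was that of Rcan1, a target of calcineurin, at 0.25 (SE 0.35), or -0.04 without mouse 2276.

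In Sox6 and Tbx15 mouse 2281 lay at the other end. Sox6, which represses slow genes in fast fibers, was at 29.0, 31.2 and 45.8 FPKM in WT and at 20.7, 24.9 and 31.2 FPKM in HrasG12V. Tbx15, a factor of glycolytic fibers, was at 58.4, 63.4 and 113.2 FPKM in WT and at 55.0, 49.7 and 45.9 FPKM in HrasG12V. The r with the slow score was -0.851 for Sox6 and -0.932 for Tbx15. Mouse 2281 was the highest of the 6 in 6 of the 16 regulators, where it was the highest in 14.0% of all genes.

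**Figure D4:**
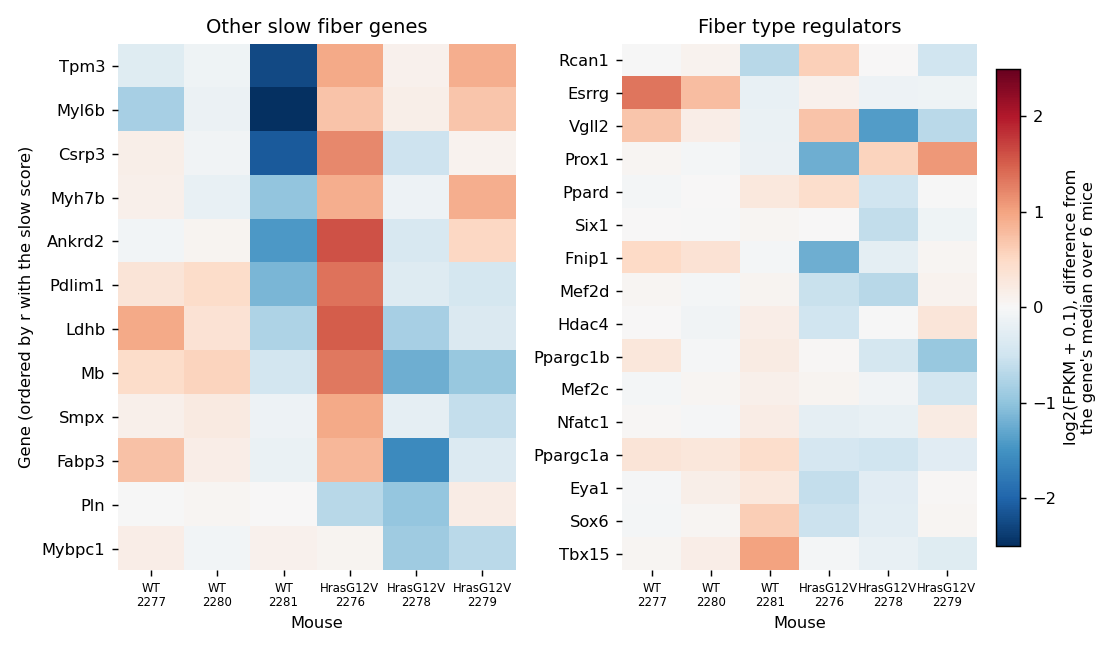
Colour gives log2(FPKM + 0.1) of each gene as a difference from the gene's median over the 6 mice, from blue (lower) to red (higher), with mice in columns and genes ordered from the highest r with the slow score at the top. WT mouse 2281 is darkest blue in Tpm3, Myl6b and Csrp3 on the left and red in Tbx15 and Sox6, the lowest rows on the right.

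Outside all lists, 3175 genes with a mean of at least 5 FPKM, a log2 range of at least 1 and no zero were ranked by r with the slow score, and 12 reached 0.9. The highest was D830015G02Rik, a gene of no function known here, at 7.39, 6.36 and 0.151 FPKM in WT and at 16.8, 5.82 and 17.2 FPKM in HrasG12V (r = 0.997, n = 6). Next came Hoxd9, a limb patterning gene, at 9.17, 9.01 and 1.18 FPKM in WT and 15.1, 5.99 and 11.1 FPKM in HrasG12V (r = 0.988). Hoxd8, its neighbour in the cluster, was at 29.2, 26.1 and 4.43 FPKM in WT and 28.1, 17.0 and 20.9 FPKM in HrasG12V (r = 0.938). Myom3, an M-band protein, was at 25.3, 25.7 and 5.35 FPKM in WT and 44.7, 20.4 and 27.2 FPKM in HrasG12V (r = 0.983).

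The other named genes were Myh10 (r = 0.961), Sim2 (0.950), the short Mir1954 and Snora65 loci (0.935 and 0.917), Klhl34 (0.916) and Fhl2 (0.910). Mouse 2281 was the lowest mouse in each of the 10. As with the lists, mouse 2281 is the far point of the score.

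Markers of other cell types varied between the libraries too, and their part in the slow gene values was not tested. Counts of marker genes past the unadjusted p by limma are to be read against 10.2% of all genes, against 4.54% without mouse 2281, 29.8% without mouse 2276 and 22.2% without both. Heart muscle uses Myl2, Myl3, Tnnc1, Atp2a2 and Casq2 as well. Of the 8 heart markers Nkx2-5 was listed at 0 in all 6 libraries and Nppa, Myl7, Mybpc3 and Ryr2 were below 0.3 FPKM in each. Tbx5 was at 0.0464 to 0.353 FPKM, highest in mouse 2281, and Tnni3 at 0.501 to 1.21 FPKM. The list summed to 2.12 FPKM in mouse 2281 and to 9.68 to 24.2 FPKM in the others, most of it Myh6 in those 5 mice. The 8 lymphocyte genes summed to 92.4 and 81.9 FPKM in HrasG12V mice 2278 and 2279 and to 1.29 to 2.32 FPKM in the other 4 mice, mouse 2281 being the lowest, and 7 of the 8 passed the unadjusted p, or 2 of the 8 without mouse 2281 and all 8 without mouse 2276. The 6 tendon genes summed to 257.3 to 532.2 FPKM in WT and 92.7 to 208.5 FPKM in HrasG12V, and 5 of the 6 were lower in HrasG12V by the unadjusted p, or 2 of the 6 without mouse 2281, 3 without mouse 2276 and 0 without both. The 6 Schwann cell genes summed to 136.1 to 374.0 FPKM in WT and 231.2 to 621.0 FPKM in HrasG12V, with 2 of 6 higher by the unadjusted p, and the 6 smooth muscle genes to 112.2 to 202.0 and 80.5 to 158.8 FPKM, with 1 of 6 lower. Without mouse 2281, 0 of these 12 passed, and without mouse 2276, 5 Schwann cell genes and 1 smooth muscle gene did.

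The adipocyte genes were also low in mouse 2281. They summed to 728.5, 723.0 and 405.8 FPKM in WT and to 818.9, 970.9 and 895.9 FPKM in HrasG12V, most of it Fabp4. Mouse 2281 was the lowest in 5 of the 6, at least 4-fold below the next in Plin1 and Cfd, and 1 of the 6 (Cfd) was higher in HrasG12V by the unadjusted p, as it was without mouse 2281, against 3 without mouse 2276 and 4 without both. Of the 6 developing fiber genes, 1 (Myl4) was higher in HrasG12V by the unadjusted p (log2 difference 0.92, SE 0.25). Without mouse 2276 Chrng also passed, lower in HrasG12V, while mouse 2281 was not low in Myl4.

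**Figure D5:**
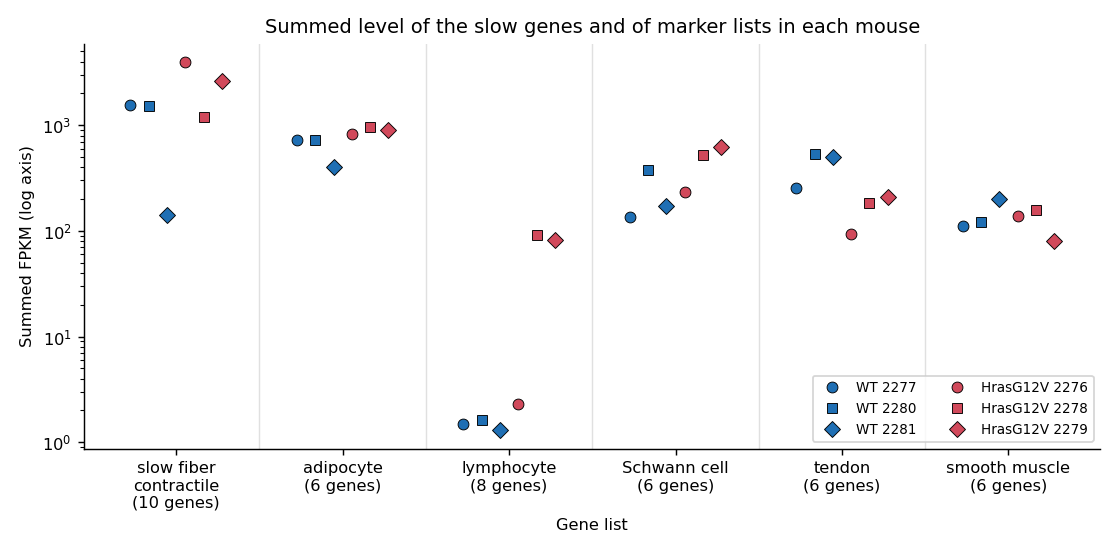
Summed FPKM (log axis) of the 10 slow fiber contractile genes and of 5 lists of markers of other cell types, with 1 point per mouse, blue for WT and red for HrasG12V. The slow sum of WT mouse 2281 (140.8 FPKM) lies below the 1210 to 3938 FPKM of the other 5 mice, and of the 5 marker lists shown the adipocyte and lymphocyte sums are also lowest in that mouse.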

How the data were processed

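Stranded mRNA libraries of 6 gastrocnemius muscles had, per the labels and methods, been read as single ends, aligned with TopHat to GRCm38 (mm10) and quantified with Cufflinks and Cuffnorm. The authors deposited FPKM per gene symbol, with tool versions and annotation not given in the sources used here. Low values showed no steps of whole reads, so no count model was used. From the FPKM, log2(FPKM + 0.1) was computed for the 13359 genes averaging 0.5 FPKM or more, and genotypes were compared by limma 3.58.1 (R 4.3.3) with Benjamini-Hochberg adjustment over all genes, in place of the unpaired test of the methods. The p-values compare the genotype difference with the spread between these mice within each genotype, moderated over all genes.

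The slow genes and all lists were chosen with earlier results of these data known. Named genes were the 10 slow genes, their fast paralogs, genes of the slow fiber and regulator lists past the unadjusted p, and the 10 genes outside the lists with the highest r to the slow score. Other genes were named after their values were seen. In simulated data of 13359 genes for HrasG12V against WT, genes with an unadjusted limma p below 0.05 were counted. These were 77 to 80 of 100 genes changed by a log2 of 1 and 95 to 99 of 100 changed by 3. At most 5.49% of unchanged genes were counted too. The changed genes were drawn at random, and no mouse was made low in many genes together. The recovery therefore does not carry over to the slow genes. Alternatives were pseudocounts of 1 and 0.01, no filter, a mean of at least 1 FPKM, median centring, the same total FPKM, quantile normalization and leaving out each mouse. Promoters came from RefSeq.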

Additional observations from a re-analysis of the deposited data

How the results depend on the processing

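The median log2 difference of the 10 slow fiber contractile genes was 2.54 and lay between 2.43 and 2.55 under the other pseudocounts, filters and scalings. Leaving out 1 mouse gave 0.65 (without 2281) to 3.41, and leaving out mice 2276 and 2281 together, chosen after the data were seen, gave 0.26. Of 140 alternative values of the single genes 136 were positive, and the 4 negative ones were in Casq2 and Myoz2. The median log2 ratio difference of the 7 slow and fast pairs (2.36) ran from 0.40 to 3.27 when 1 mouse was left out.

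Over all genes, 1358 passed the unadjusted p and 8 the adjusted p. With the same total FPKM 712 passed the unadjusted p, leaving out 1 mouse gave 606 to 3979, and without mice 2276 and 2281 it was 2961. The adjusted p was passed by 5 with a pseudocount of 1, by 7 to 1291 when 1 mouse was left out and by 431 without mice 2276 and 2281. The cause of these shifts was not tested. Of the 12 other slow fiber genes, 2 passed the unadjusted p, both higher in HrasG12V, where 10.2% of all genes did. When 1 mouse was left out, 1 to 4 of the 12 passed. Without mice 2276 and 2281, 5 of the 12 passed, all lower in HrasG12V, where 22.2% of all genes did. The median log2 difference of the 12 genes, 0.14, ran from -0.33 (without 2276) to 0.49 (without 2278) when 1 mouse was left out. It was -0.495 without mice 2276 and 2281.

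No paired analysis was possible because the mice share no replicate number or litter label between genotypes. With 3 mice per genotype, no read counts per gene and zeros listed for abundant genes, the spread between mice is the sole measure of error.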
